A study of Homo sapiens with 6 samples.

Results

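The genes described here are the metallothioneins MT1E, MT1F, MT1G, MT1M, MT1X and MT2A, taken by gene name from the deposited expression table of 3 bladder cancer (BC) cell lines. Of these 6 genes, 3 (MT2A, MT1X and MT1F) were among the names of the table, which holds 10066 assembled loci, and each was the single name of its locus. MT1E, MT1G and MT1M were not among the names, and neither were 14 other metallothionein genes and pseudogenes that were looked for, so these were not analysed here. A name that is missing from the table says nothing of its level, because the sources used here do not say how its rows were selected.

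Metallothioneins are small, cysteine-rich proteins that bind zinc and copper and also sequester cadmium. Their human genes lie side by side in a cluster on chromosome 16, and their transcription is driven by the zinc-sensing factor MTF1, which binds metal response elements in their promoters. Inhibitors of histone deacetylases (HDACs), such as quisinostat, are known to raise the expression of metallothionein genes in several cell types.

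RNA-seq was performed on RT4 cells (FGFR3-TACC3 fusion), RT112 cells (FGFR3-TACC3 fusion) and SW780 cells (FGFR3-BAIBP2L1 fusion) after 2 days with DMSO or quisinostat, to find the genes whose expression the drug changes. Quisinostat was given at 50 nM to RT4 cells, 10 nM to RT112 cells and 25 nM to SW780 cells, so dose and cell line cannot be told apart. RT4 cells were grown in McCoy's 5A medium and the other lines in DMEM, all with heat-inactivated serum, and RT112 cells also had glutamine and non-essential amino acids. Each line gave 1 library per treatment, 6 in all, so a difference within a line has no replicate check, and 1 label of the SW780 quisinostat library spells the line differently from its other labels.

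Values are FPKM, which are fragments per length of transcript and per mapped fragments of the library, so they may be compared between genes. Read counts were not part of the data used here and the depth is unknown, so no counting interval can be given, and this bears most on values under 1 FPKM. The 6 libraries were alike in scale, with a median locus at 6.59 to 7.39 FPKM and 213 to 534 loci at 0. All 12 bladder epithelial markers looked for were among the names, and 9 of them had at least 1 FPKM in each of the 3 DMSO libraries, while UPK3A, a uroplakin of the bladder surface, was listed at 0 in 2 libraries. These markers also differed between treatments, with a median log2 ratio of quisinostat over DMSO of -1.18 in RT4 cells, 0.58 in RT112 cells and -0.68 in SW780 cells over the 11 with a ratio, of which 6, 1 and 2 lay below -1 and 1, 2 and 1 above 1. Over all loci with a ratio, 18.0%, 13.8% and 10.5% lay above 1, and the share below -1 was not counted. The median of the markers was highest in RT112 cells, as were the metallothionein ratios, and the part of the markers in those was not tested. In bulk RNA, more RNA per cell and more cells that carry the RNA cannot be told apart.

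Gene models from GENCODE 29 on GRCh38 place MT2A at chr16:56608199-56609497, MT1F at chr16:56657694-56660698 and MT1X at chr16:56682424-56684196, all on the plus strand. The first-numbered transcript of each gene has 3 exons, which carry 28, 66 and 89 coding bases in that order, or 183 coding bases in total without the stop codon. This coding layout is the same in all 3 genes, and their RNAs share stretches of sequence. Of the 737 stretches of 50 bases in the MT2A transcript, 36 (4.88%) also occur in transcripts of other genes, all of them metallothioneins. For MT1F this holds for 23 of 641 stretches (3.59%). For MT1X it holds for 181 of 401 stretches (45.1%), of which 64 are shared with metallothioneins and the rest only with AC026461.1, a gene model on the same strand that overlaps MT1X. How reads of such stretches were divided between genes is not given in the sources used here, so the level of MT1X in particular is uncertain to that extent. The MT2A transcript used here begins 385 bases before the gene start in RefSeq. Its share of 4.88% thus also counts stretches from before that start.

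MT1F had no entry among the RefSeq promoters used here, so only the promoters of MT2A and MT1X are shown. They are shown for their matches to the metal response element, through which MTF1 acts on metallothionein genes. Each is the 250 bases before the gene start in RefSeq (GRCh38.p14), on the plus strand, at chr16:56608334-56608583 for MT2A and at chr16:56682220-56682469 for MT1X. Capitals mark the core of the metal response element, TGCACNC or TGCGCNC on either strand, so that a core on the minus strand reads GNGTGCA or GNGCGCA here.
MT2A: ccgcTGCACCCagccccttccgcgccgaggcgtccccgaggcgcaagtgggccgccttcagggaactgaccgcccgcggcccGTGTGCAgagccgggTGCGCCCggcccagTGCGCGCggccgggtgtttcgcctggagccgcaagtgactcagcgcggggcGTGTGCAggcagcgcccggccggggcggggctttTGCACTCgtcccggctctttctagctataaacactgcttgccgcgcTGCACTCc
MT1X: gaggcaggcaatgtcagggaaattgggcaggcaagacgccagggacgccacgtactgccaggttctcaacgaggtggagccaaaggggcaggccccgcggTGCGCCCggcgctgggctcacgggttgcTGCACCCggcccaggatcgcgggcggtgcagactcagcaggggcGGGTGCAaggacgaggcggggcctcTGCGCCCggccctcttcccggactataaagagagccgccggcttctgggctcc
The MT2A stretch holds 7 cores, 5 on the plus and 2 on the minus strand, and the MT1X stretch holds 4, of which 3 are on the plus strand. Among 35116 RefSeq promoters of the same length, 24.8% hold at least 1 core, 130 (0.370%) hold 4 or more and 11 (0.0313%) hold 7 or more. Both stretches also carry 2 GC boxes (GGGCGG, in 42.6% of promoters) and a TATA sequence (TATAAA, in 10.7% of promoters), which begins 29 bases before the start of MT2A and 30 bases before that of MT1X. In MT1X, 2 bases of a core are shared with a GC box, and no other base of a core in either stretch is shared with a GC box or the TATA sequence. Neither stretch holds an E-box (CACGTG, in 6.34% of promoters). These matches describe letters and are not measured sites. GENCODE 29 begins its MT2A transcript 385 bases, and its MT1X transcript 46 bases, upstream of the RefSeq start.

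In untreated BC cells, the metallothioneins were expressed at low to middling levels, and each gene had its own order of cell lines. MT2A, the most widely expressed human metallothionein, was at 1.56 FPKM in RT4 cells, 2.13 FPKM in RT112 cells and 7.73 FPKM in SW780 cells with DMSO. SW780 cells stood 3.63-fold above RT112 and 4.94-fold above RT4 cells, while the latter lines differed by 1.36-fold. In SW780 cells, 53.4% of all loci had a lower level than MT2A, compared with 18.3% in RT4 and 23.9% in RT112 cells.

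MT1X, a member of the MT1 subfamily, was at 2.01 FPKM in RT4 cells, 5.57 FPKM in RT112 cells and 4.61 FPKM in SW780 cells with DMSO. RT112 and SW780 cells were close, 1.21-fold apart, and RT4 cells were 2.30-fold below SW780 cells. MT1F, another member of that subfamily, ran the other way, with 1.04 FPKM in RT4 cells, 0.204 FPKM in RT112 cells and 0.234 FPKM in SW780 cells. RT4 cells were thus lowest of the 3 lines for MT2A and MT1X and highest for MT1F, by 5.10-fold over RT112 and 4.46-fold over SW780 cells. Since each line has 1 DMSO library, none of these orders could be set against a spread within a line.

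After quisinostat treatment, all 3 metallothioneins were higher than with DMSO in all 3 BC cell lines, and the difference was largest in RT112 cells for each gene. MT2A went from 1.56 to 3.07 FPKM in RT4 cells, from 2.13 to 20.8 FPKM in RT112 cells and from 7.73 to 17.2 FPKM in SW780 cells. These are 1.96-fold, 9.75-fold and 2.22-fold differences, or log2 ratios of 0.97, 3.29 and 1.15. The lowest quisinostat library (RT4) lay below the highest DMSO library (SW780), so the treatments overlapped across lines and separated only within a line.

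MT1X went from 2.01 to 3.38 FPKM in RT4 cells, from 5.57 to 45.8 FPKM in RT112 cells and from 4.61 to 20.2 FPKM in SW780 cells. The folds were 1.69, 8.23 and 4.39, and the log2 ratios 0.75, 3.04 and 2.13. At 45.8 FPKM, MT1X in RT112 cells was the highest metallothionein value of the 6 libraries, above 91.3% of all loci of that library, while with DMSO it had been above 45.1%.

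MT1F went from 1.04 to 2.33 FPKM in RT4 cells, from 0.204 to 3.07 FPKM in RT112 cells and from 0.234 to 0.585 FPKM in SW780 cells. The folds were 2.23, 15 and 2.5, and the log2 ratios 1.16, 3.91 and 1.32. The 15-fold difference in RT112 cells was the largest of the family but began from the lowest level, and MT1F stayed below 1 FPKM in SW780 cells with either treatment. As for MT2A and MT1X, its quisinostat and DMSO values overlapped across the lines.

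**Figure D1:**
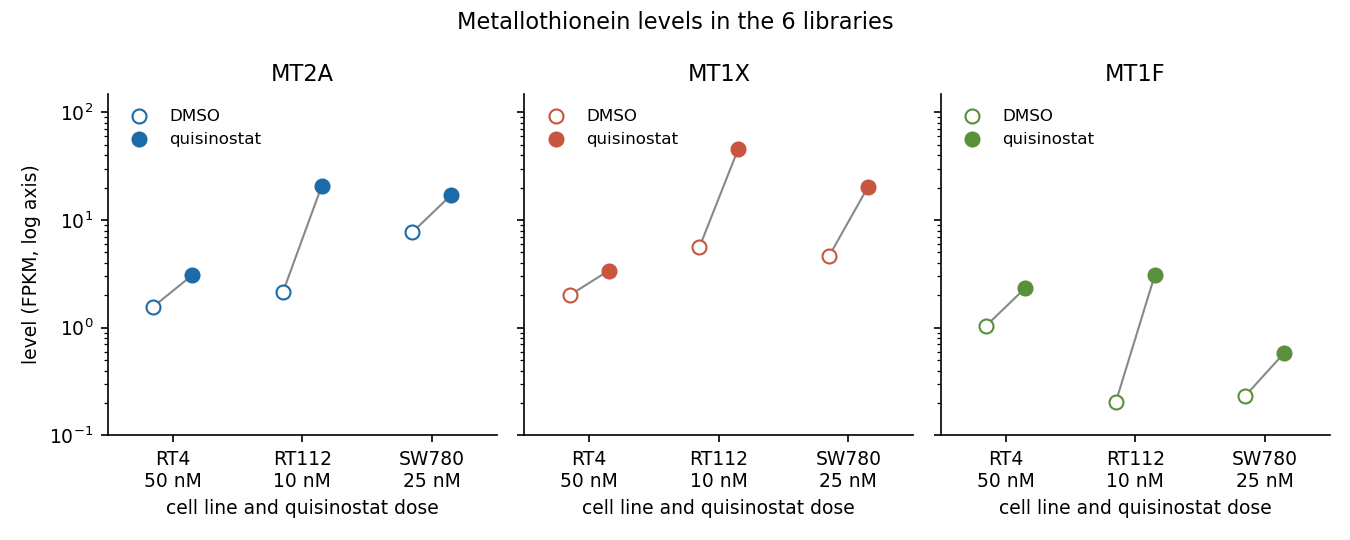
Levels of MT2A, MT1X and MT1F (FPKM, log axis) by cell line and quisinostat dose, with open points for DMSO, filled points for quisinostat and a line joining the 2 libraries of a cell line. Each quisinostat point lies above its DMSO point, and the steepest line of each panel is that of RT112 cells, for example from 5.57 to 45.8 FPKM for MT1X.

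With quisinostat the order of the lines differed from that of the DMSO libraries for MT2A and MT1F and was the same for MT1X. RT112 cells had the highest level of all 3 genes, 1.21-fold above SW780 cells for MT2A, 2.26-fold above SW780 cells for MT1X and 1.32-fold above RT4 cells for MT1F. RT4 cells remained lowest for MT2A and MT1X, 5.59-fold and 5.99-fold below SW780 cells. For MT1F the lowest line was SW780, which was 3.98-fold below RT4 cells.

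To set the members against the rest of the transcriptome, log2 ratios were taken for the 9112 loci above 0 in all 6 libraries. A difference of more than 2-fold (a log2 ratio above 1) was reached by 1 of the 3 members in RT4 cells, where 18.0% of all loci reached it, by 3 of 3 in RT112 cells (13.8% of loci) and by 3 of 3 in SW780 cells (10.5% of loci). MT1F was above this limit in all 3 lines, as were 3.0% of loci. A log2 ratio above 0.3 in all 3 lines was found for 3 of 3 members and for 11.4% of loci. Median ratios of all loci were near 0 at 0.08 in RT4 cells, 0.06 in RT112 cells and 0.04 in SW780 cells.

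In RT112 cells the members lay at the far end of the distribution over all loci, and in RT4 cells they did not. Higher ratios than that of MT2A were found for 18.5% of loci in RT4 cells, 1.51% in RT112 cells and 8.48% in SW780 cells. For MT1X these shares were 23.7%, 1.79% and 2.88%, and for MT1F they were 14.7%, 0.988% and 7.0%. The smallest of the 3 ratios was that of RT4 cells for each gene. Ranked by their smallest ratio, MT1F was 222nd, MT2A 285th and MT1X 397th of 9112 loci.

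**Figure D2:**
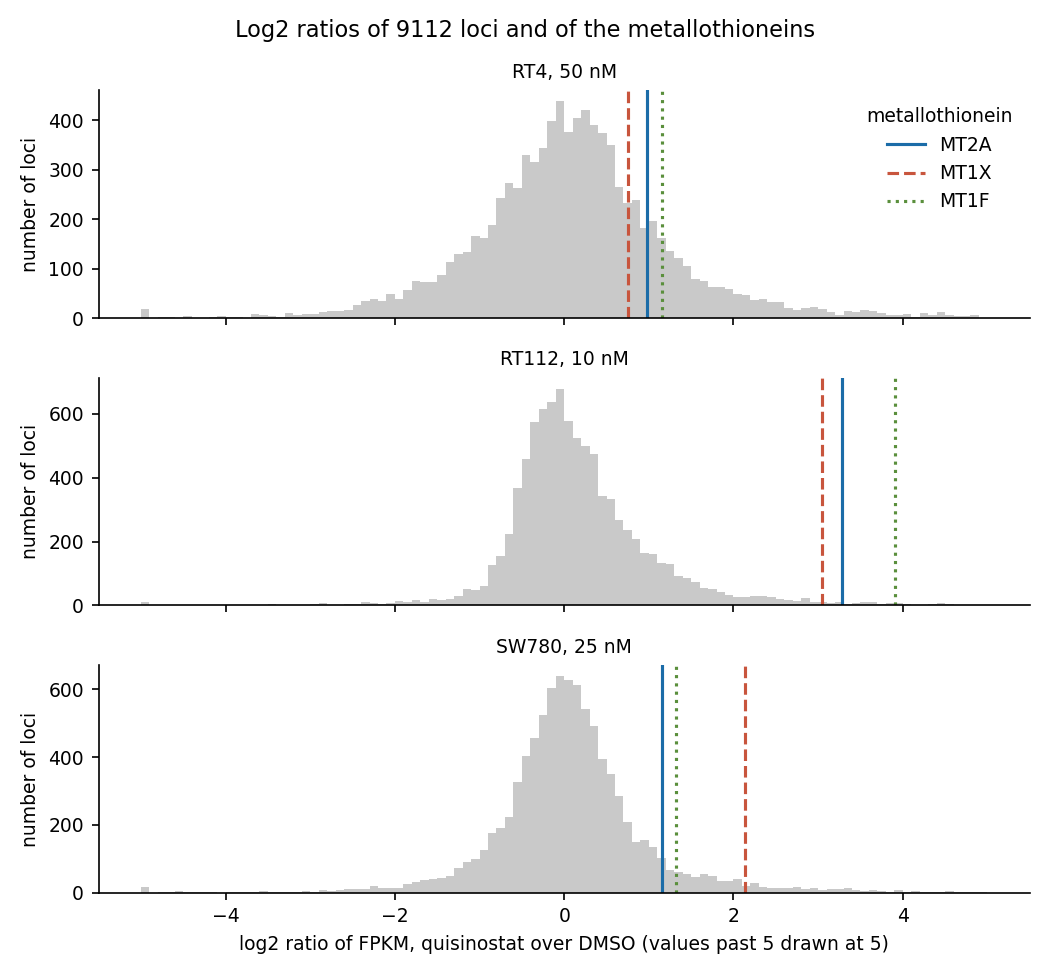
Histograms of the log2 ratio of FPKM in quisinostat over DMSO for 9112 loci in each cell line (grey, number of loci per bin), with vertical lines at MT2A, MT1X and MT1F. In RT112 cells all 3 lines stand between 3.04 and 3.91, past nearly all loci, and in RT4 cells they stand between 0.75 and 1.16, where many loci lie.

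Because ratios of weakly expressed loci scatter widely, each member was also read against the loci whose DMSO level in that line lay within 0.5 log2 units of its own. In RT4 cells, 40.3% of 675 such loci had a higher ratio than MT2A, 42.6% of 892 a higher ratio than MT1X and 43.8% of 454 a higher ratio than MT1F. The members in RT4 cells were thus near the middle of loci of like level, though not of loci of like GC content, as given with the GC values. In RT112 cells the shares were 0.215% of 930 loci for MT2A, 0.0531% of 1882 loci for MT1X and 9.60% of 125 loci for MT1F. In SW780 cells they were 3.18% of 2041 loci for MT2A and 0.444% of 1802 loci for MT1X, but 54.0% of 113 loci for MT1F, which there lay near the middle too.

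The libraries of a line also differed with the GC content of transcripts, and the metallothionein transcripts are GC-rich at 63.0% for MT2A, 59.9% for MT1F and 54.3% for MT1X. Over the 8407 loci with a value (92.3% of 9112), the Spearman correlation of log2 ratio with GC content was -0.49 in RT4 cells, 0.44 in RT112 cells and -0.22 in SW780 cells, so the sign in RT112 cells was opposite to that in the other lines. What part of this is technical was not tested. After a smooth curve of this trend was subtracted within each line, the log2 ratios of MT2A were 2.13 in RT4 cells, 2.53 in RT112 cells and 1.51 in SW780 cells. Those of MT1X were 1.06, 2.92 and 2.21, and those of MT1F were 1.98, 3.40 and 1.57. All 9 corrected ratios were thus above 1. Among loci within 1 percentage point of the GC content of MT2A, 4.47% had a higher plain ratio than MT2A in RT4 cells, 3.19% in RT112 cells and 4.79% in SW780 cells. For MT1X these shares were 16.7%, 1.19% and 2.39%, and for MT1F 6.98%, 1.44% and 5.34%. Read this way, the members stood high in RT4 cells as well, MT1X less so than the others. Level and GC content were not matched at the same time, and by level alone the members lay near the middle in RT4 cells.

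The lead of RT112 cells was smaller after this correction, most of all for MT2A. The GC content of MT2A is that of a GENCODE model that begins 385 bases upstream of the RefSeq start. That model includes the 250 bases printed above as its promoter, which are at 73.2% GC. No correction was computed with a shorter transcript, so the size of the shift of MT2A may depend on this choice. The ratio in RT112 cells exceeded the mean ratio of the other lines by 2.22 for MT2A before and 0.71 after correction, by 1.60 and 1.29 for MT1X, and by 2.67 and 1.63 for MT1F. An excess at least as large was found for 5.23% of loci before and 13.5% after correction in the case of MT2A, for 9.91% and 5.65% in the case of MT1X, and for 3.40% and 3.68% in the case of MT1F. RT112 cells still had the largest corrected ratio of each gene. With 1 library per line and treatment, the difference between lines has no test.

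**Figure D3:**
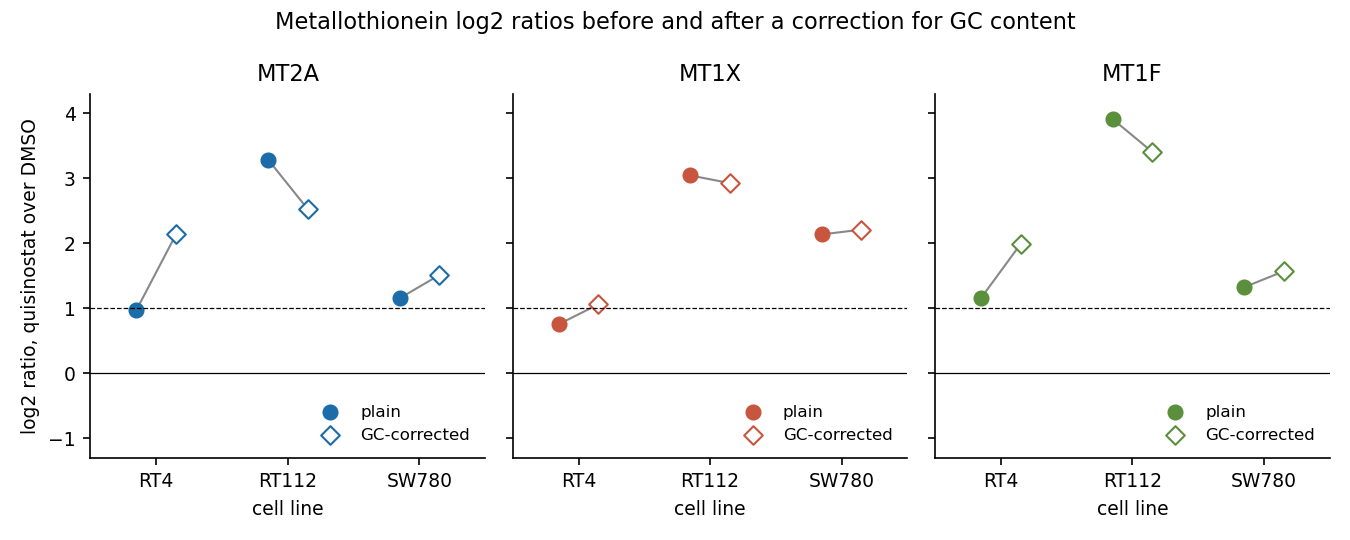
Log2 ratios of quisinostat over DMSO for each metallothionein and cell line, as plain values (filled circles) and after the correction for GC content (open diamonds), with a dashed line at 1. For MT2A the plain values of 0.97 in RT4 and 3.29 in RT112 cells move together to 2.13 and 2.53, and MT1X moves least in RT112 and SW780 cells.

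The cell lines served as the only replicates for a test of quisinostat against DMSO. With limma on log2(FPKM + 1) over 9430 loci and cell line as a block (3 lines), the log2 fold change was 1.77 ± 0.44 (SE) for MT1X, with a Benjamini-Hochberg adjusted p = 0.281. Its unadjusted p in that fit was 0.0083. For MT2A it was 1.51 ± 0.44 with an adjusted p = 0.311 in limma (unadjusted p = 0.016), and for MT1F 0.94 ± 0.41 with an adjusted p = 0.382 in limma (unadjusted p = 0.067). No member passed the adjusted threshold of 0.05, and neither did any of the 9430 loci, which is 0% called. At an unadjusted p under 0.05, 2 of the 3 members were higher in quisinostat, against 9.68% of loci (913 higher and 392 lower). This scale understates the change of weakly expressed genes such as MT1F. On the plain log2 scale, the mean ratio over the 3 lines was 1.80 ± 1.29 (SD) for MT2A, 1.98 ± 1.15 for MT1X and 2.13 ± 1.54 for MT1F, so the spread between lines was more than 0.5 of the mean in each case.

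Summed over the 3 members, the metallothionein level went from 4.61 to 8.78 FPKM in RT4 (1.90-fold), from 7.90 to 69.6 FPKM in RT112 (8.81-fold) and from 12.6 to 38.0 FPKM in SW780 cells (3.02-fold). The line with the highest sum was SW780 with DMSO and RT112 with quisinostat. The share of each gene in the sum differed more between RT4 and RT112 cells than between the treatments of either line. This did not hold for SW780 cells, as given below. MT1X made up 70.4% of the sum in RT112 cells with DMSO and 65.8% with quisinostat, and MT2A made up 27.0% and 29.8%.

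In RT4 cells the sum was spread over all 3 genes, with 33.9% MT2A, 43.5% MT1X and 22.6% MT1F in DMSO and 35.0%, 38.5% and 26.5% in quisinostat. MT1F thus held a large share in RT4 cells only, since it was between 1.54% and 4.40% in the other 4 libraries. SW780 cells did not keep their proportions, as MT2A went from 61.5% to 45.2% and MT1X from 36.7% to 53.3% of the sum. The level of MT1X over that of MT2A was accordingly 0.597 with DMSO and 1.18 with quisinostat in SW780 cells, compared with 1.28 and 1.10 in RT4 and 2.61 and 2.20 in RT112 cells.

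**Figure D4:**
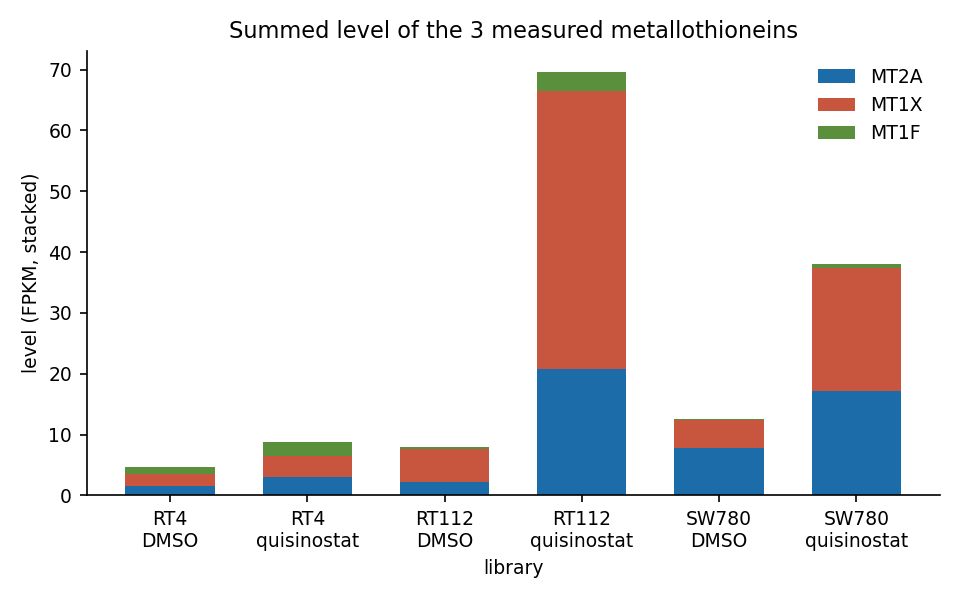
Levels of MT2A, MT1X and MT1F (FPKM) stacked in each of the 6 libraries. The sum is highest in RT112 cells with quisinostat at 69.6 FPKM, MT1X is the largest part of both RT112 bars, and MT1F is visible mainly in RT4 cells and in RT112 cells with quisinostat.

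Across the 6 libraries, MT2A and MT1X varied alike and MT1F did not follow them. On log2(FPKM + 1), Pearson's r was 0.90 between MT2A and MT1X, 0.25 between MT2A and MT1F and 0.36 between MT1X and MT1F. These are descriptions over 6 points that share cell lines and treatments. The named loci most like the mean of the 3 members were SUSD6 (r = 0.98), LIMK2 (0.98), FBLIM1 (0.98), ZDHHC16 (0.97) and KIAA0513 (0.97) among 8766 compared.

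Likeness on this measure is of shape and not of size. SUSD6 had log2 ratios of only 0.15 in RT4 cells, 0.34 in RT112 cells and 0.23 in SW780 cells. LIMK2, a kinase of the actin regulator cofilin, had 0.35, 1.33 and 0.89, and FBLIM1, an adaptor of cell-matrix adhesions, had 0.20, 1.08 and 0.65. ZDHHC16, a palmitoyltransferase, had 0.32, 0.71 and 0.25. KIAA0513 had 1.25, 2.04 and 1.14 and was thus higher by more than 2-fold in each line, from 0.955 to 2.28 FPKM in RT4, 1.31 to 5.38 FPKM in RT112 and 1.37 to 3.02 FPKM in SW780 cells. The 5 loci were chosen by their likeness over these same libraries, so a largest ratio in RT112 cells is no finding about them.

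The RNA level of the regulator of the family differed little between treatments, with ratios on both sides of 0. Its protein and its activity were not measured, so its part in the metallothionein ratios was not tested. MTF1, the factor that binds metal response elements, was at 5.56 FPKM with DMSO and 6.68 with quisinostat in RT4, 4.19 and 3.70 FPKM in RT112, and 4.77 and 6.38 FPKM in SW780 cells. Its log2 ratios were 0.26, -0.18 and 0.42, and in RT112 cells, where the metallothioneins differed most, its level was lower with quisinostat. In limma its log2 fold change was 0.15 ± 0.23 (SE) with a Benjamini-Hochberg adjusted p = 0.796.

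SLC30A1, a zinc exporter of the cell surface and a known MTF1 target, went from 4.14 to 6.60 FPKM in RT4 cells, from 10.5 to 13.8 FPKM in RT112 cells and from 7.50 to 17.0 FPKM in SW780 cells. All 3 of its log2 ratios were above 0, at 0.67, 0.38 and 1.18, but the largest was in SW780 and the smallest in RT112 cells. In limma the log2 fold change was 0.67 ± 0.23 (SE) with a Benjamini-Hochberg adjusted p = 0.331 (unadjusted p = 0.031). SLC39A10, a zinc importer that MTF1 is known to repress, had log2 ratios of -0.09, 0.20 and 0.48 and an adjusted p = 0.741 in limma.

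Other genes of metal handling were read as groups beside the metallothioneins. The ratios of these groups, of the lists further below and of the bladder markers above were not corrected for GC content. Of 10 zinc exporters looked for, 4 were among the names and 3 had a ratio, with medians of 0.67 in RT4 cells, -0.13 in RT112 cells and 0.40 in SW780 cells. Of 14 zinc importers, 9 had a ratio, with medians of 0.31, 0.14 and 0.34. In these lists 1 exporter in SW780 cells and 1 importer in RT4 cells exceeded a log2 ratio of 1, and in RT112 cells none did. Over all loci the shares were 10.5% in SW780, 18.0% in RT4 and 13.8% in RT112 cells.

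Of 11 genes of copper handling, 10 had a ratio, with medians of 0.35 in RT4 cells, 0.34 in RT112 cells and 0.02 in SW780 cells. A log2 ratio above 1 was found for 1, 3 and 1 of these genes in that order of lines. Over all loci the shares were 18.0%, 13.8% and 10.5%. A ratio below -1 was found for 2, 0 and 1 of the copper genes. The share of all loci below -1 was not counted, so counts below -1 in this and the other lists have no such comparison. RT112 cells thus had the most copper genes past 1, while among the metallothioneins RT112 and SW780 cells had 3 each. SLC31A2, a copper transporter of endosomes and lysosomes, was the only gene of the metal lists above a log2 ratio of 1 in all 3 lines. Its level went from 0.762 to 4.70 FPKM in RT4 cells, from 2.02 to 17.3 FPKM in RT112 cells and from 1.00 to 9.24 FPKM in SW780 cells. These are 6.16-fold, 8.59-fold and 9.21-fold differences, more even over the lines than those of the metallothioneins. Its limma log2 fold change was 2.22 ± 0.28 (SE), with an adjusted p = 0.226 and an unadjusted p = 3.1e-04.

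Among 14 genes of metal-responsive regulation on 13 loci, medians were 0.35 in RT4 cells, 0.20 in RT112 cells and 0.19 in SW780 cells. In that order, 3, 0 and 2 loci exceeded a log2 ratio of 1, while 1, 0 and 4 lay below -1. Over all loci, 18.0%, 13.8% and 10.5% exceeded 1. Metallothioneins also respond to glucocorticoids and to oxidative stress, so genes of these responses were read beside them. Of 10 glucocorticoid-responsive genes, 5 had a ratio, with medians of 0.94, 0.18 and 0.47. The 15 genes of glutathione and oxidative stress had medians of 0.98, -0.18 and -0.37. Of these, 7 in RT4 and 0 in both other lines exceeded a log2 ratio of 1, while 1, 0 and 3 lay below -1. GCLC, GCLM, HMOX1, NQO1 and TXNRD1 are in both this list and the metal-responsive one. HMOX1, GCLM and TXNRD1 thus count as above 1 in RT4 cells in both. The line with the highest median was RT4 in the glucocorticoid and the oxidative stress list, while the metallothioneins had their largest ratios in RT112 cells. No gene of any of these lists passed an adjusted p of 0.05 in limma. At an unadjusted p under 0.05 there were 1 of 3 zinc exporters, 1 of 9 importers and 3 of 10 copper genes. There were also 2 of 13 metal-responsive loci, 1 of 5 glucocorticoid-responsive genes and 0 of 15 oxidative stress genes. All of these were higher in quisinostat, as were 9.68% of all loci at that limit. SLC30A1 counts in both the zinc exporter and the metal-responsive list.

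Genes known to respond to HDAC inhibitors in many cells (CDKN1A, H1F0, GSN, CLU and TUBB3) had a median log2 ratio of 0.12 in RT4 cells, 1.36 in RT112 cells and -0.04 in SW780 cells. A log2 ratio above 1 was found for 1, 3 and 1 of these 5 genes, against 18.0%, 13.8% and 10.5% of all loci. A ratio below -1 was found for 1, 0 and 0 of them, namely TUBB3 in RT4 cells at -1.90. RT112 cells had the highest median of this list too. These medians were not corrected for GC content, whose trend also had an opposite sign in RT112 cells. TUBB3 shares its locus with another gene in the table, so its value is uncertain.

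The genes beside the cluster did not differ with quisinostat as the metallothioneins did. BBS2, a gene of cilium assembly, is the measured gene just before the cluster. It lies 44.8 kb ahead of MT4, the first gene of the cluster, which is not among the names of the table. NUP93, a nuclear pore gene, starts 45.9 kb behind MT1X, the last gene of the cluster. BBS2 went from 5.23 to 6.34 FPKM in RT4 cells, from 6.17 to 9.84 FPKM in RT112 cells and from 11.3 to 10.6 FPKM in SW780 cells. NUP93 went from 6.84 to 8.11 FPKM in RT4 cells, from 10.7 to 7.77 FPKM in RT112 cells and from 11.5 to 11.3 FPKM in SW780 cells. Their log2 ratios were thus 0.28, 0.67 and -0.09 for BBS2 and 0.25, -0.47 and -0.03 for NUP93, on both sides of 0. Adjusted p-values in limma were 0.629 for BBS2 and 0.896 for NUP93.

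Further out, 10 of 18 genes looked for before the cluster had a ratio, with medians of 0.44 in RT4 cells, 0.26 in RT112 cells and 0.01 in SW780 cells. After the cluster, 11 of 18 genes lay on 10 loci, with medians of 0.0011, -0.18 and 0.022. LPCAT2, a lysophospholipid acyltransferase that ends 978 kb before the cluster, was the only one of these neighbors above a log2 ratio of 1 in all 3 lines. It went from 2.64 to 14.0 FPKM in RT4 cells, from 13.2 to 28.5 FPKM in RT112 cells and from 11.1 to 38.9 FPKM in SW780 cells, with log2 ratios of 2.41, 1.11 and 1.81. Its order of lines was the reverse of that of the metallothioneins, with the largest ratio in RT4 and the smallest in RT112 cells, and its limma adjusted p was 0.226.

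**Figure D5:**
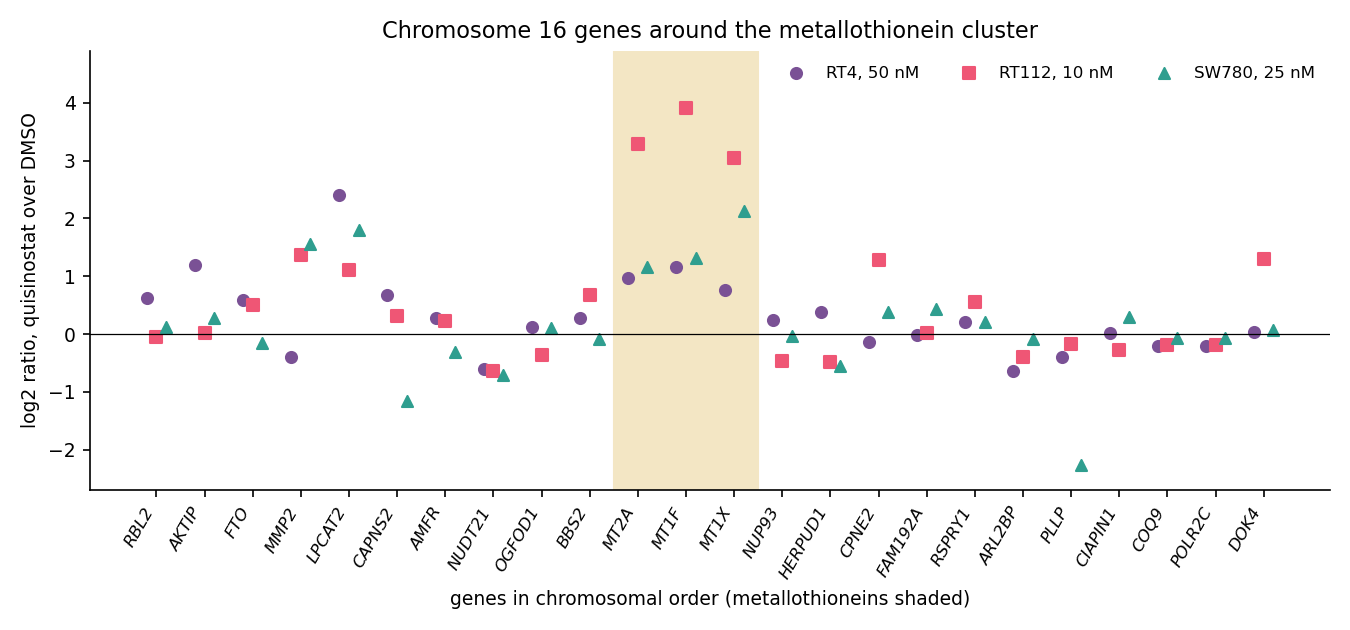
Log2 ratios of quisinostat over DMSO for genes of chromosome 16 in chromosomal order, by cell line, with the metallothioneins shaded. COQ9 and POLR2C share 1 locus. The RT112 points of MT2A, MT1F and MT1X, between 3.04 and 3.91, stand above those of the neighbors, while BBS2 and NUP93 lie between -0.47 and 0.67.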

How the data were processed

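The 6 libraries were grouped by cell line and treatment from their labels, and all 6 columns of values were used. Per the labels, stranded libraries were made from polyadenylated RNA. Per the paper's methods, the authors ran HISAT2, StringTie and Ballgown, and the deposited values are FPKM. The submitters' processing notes also name CASAVA 1.8.2, Trimmomatic 0.36, HISAT2 2.2.1, SAMtools 1.15.1, StringTie 2.2.1 and GRCh38. The annotation release and the criterion for the table's rows are not given in the sources used here. FPKM carry no correction for GC content that these sources state, and the way reads shared by similar genes were assigned can change the values of metallothioneins.

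From the 10515 rows, 1 value per locus was taken, and log2 ratios of quisinostat over DMSO were computed without a pseudocount. Across lines, limma 3.58.1 in R 4.3.3 was fitted to log2(FPKM + 1) of the loci whose mean FPKM was 1 or more, with a mean-variance trend, Benjamini-Hochberg adjustment and cell line as a block, since both libraries of a pair come from 1 line. GC content is that of the longest coding transcript in GENCODE 29, and the curve was a lowess with span 0.3 (statsmodels 0.14.6, Python 3.11.15). Both steps were tested on simulated data. Shared stretches of 50 bases were found by exact match between transcripts.

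The members and the gene lists were chosen with earlier results of these data known. Genes named besides the members are MTF1, SLC30A1 and SLC39A10, the measured genes next to the cluster, list genes with all 3 log2 ratios above 1 or below -1, the 5 loci with the highest Pearson r, and UPK3A and the HDAC inhibitor genes, which were named outside this rule. Alternatives were pseudocounts of 0.01, 0.1 and 1, centring, rescaling, quantile normalization, the GC correction, filters, other limits and, for limma, no block, no trend and leaving out a line.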

Additional observations from a re-analysis of the deposited data

Results flagged for a closer look

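The values below were picked out because they lay above 0 in 1 cell line and below 0 in another. With 1 library per line and treatment, none of these differences between lines was tested. The log2 ratios in RT4, RT112 and SW780 cells were 0.26, -0.18 and 0.42 for MTF1, the regulator of the metallothioneins, and -0.089, 0.20 and 0.48 for the zinc importer SLC39A10. Next to the cluster they were 0.28, 0.67 and -0.089 for BBS2 and 0.25, -0.47 and -0.032 for NUP93.

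Medians of gene lists, which were not corrected for GC content, also lay on both sides of 0. In the same order of lines they were 0.67, -0.13 and 0.40 for zinc exporters, 0.98, -0.18 and -0.37 for genes of glutathione and oxidative stress, 0.0011, -0.18 and 0.022 for the chromosome 16 genes after the cluster, 0.12, 1.36 and -0.043 for the HDAC inhibitor response genes, and -1.18, 0.58 and -0.68 for the bladder epithelial markers. Centring each line on the median of all loci put the genes after the cluster below 0 in all 3 lines, at -0.081, -0.24 and -0.016. MT2A, MT1X and MT1F had no log2 ratio below 0 in any line and are not among these.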

How the results depend on the processing

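The 9 member ratios stayed above 0 under all 63 recomputations, between 0.36 and 3.89, and 62 moved by less than the SD over lines. The exception was MT1F in RT112 cells, at 1.76 with a pseudocount of 1. That SD is wide, between 1.15 and 1.54, so this is a loose limit. MT2A in RT4 cells, at 0.97 plain and 2.13 with the GC correction, is among the 62. The number of members past a log2 ratio of 1 in RT4 cells, 1 as deposited, was 0 with a pseudocount of 1 or quantile normalization, 2 with libraries rescaled to an equal sum and 3 with the GC correction. With the limit at 0.3 it was 3, and at 2 it was 0. In SW780 cells the limit of 2 left 1 member in place of 3, and a pseudocount of 1 or quantile normalization left 2, with MT1F at 0.36 and 0.70. MT1F was thus no longer above 1 in all 3 lines under these settings.

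In limma, 0 members passed an adjusted p of 0.05 under the main or any other setting. Without the cell line block, 0 in place of 2 members had an unadjusted p under 0.05, and the adjusted p of each member was 0.973. Leaving out a line gave 2 to 3. Without RT112 cells, the log2 fold change was 0.86 for MT2A, 1.23 for MT1X and 0.53 for MT1F, the lowest of all settings, and over all settings adjusted p-values ran from 0.190 to 0.973. Centring turned 4 of 30 list medians from just above to below 0, none of them over 0.022 before. Unknown depth limits values under 1 FPKM, such as MT1F in RT112 and SW780 cells, and 1 library per line and treatment limits every comparison of lines.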
